A study of Iris tectorum with 6 samples.

Results

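HSP70, HSP90, ClpB and the chaperonins are the ATP-driven protein-folding machines of the plant cell, and their transcripts were followed here in leaves of Iris tectorum, a rhizomatous iris. A unigene, that is an assembled transcript, was taken as a member when the description of its best protein hit contained heat shock 70, heat shock protein 70, heat shock cognate, hsp70, hsp90, heat shock protein 8, heat shock protein 90, chaperonin, ClpB or luminal-binding. The hit also had to come from Asparagus, Elaeis, Phoenix, Musa, Ananas, Dendrobium, Phalaenopsis or Iris, all monocots. This gave 107 members of 111791 unigenes with reads, in 61 assembly clusters, and 45619 unigenes had a hit in these 8 genera. Iris plants had shared their water with Dictyosphaerium sp., a green microalga (co-culture 1, 2 and 3), or had been kept without the alga (plant alone 2 and 3). Plants of both groups stood in swine wastewater in a glasshouse, flooded to 12.3 cm on average, and the labels give no plant age and no exposure time. The labels number 3 samples per group, and plant alone 1 was not analysed here. Separate plants or vessels are not named in the labels. The p-values therefore reflect the spread between these 5 samples, which may be technical.

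HSP70 proteins bind exposed hydrophobic stretches of unfolded proteins and release them through cycles of ATP hydrolysis, which J-domain proteins start and nucleotide exchange factors end. HSP90 acts later, on nearly folded clients such as kinases and receptors, and HOP bridges HSP70 and HSP90. ClpB threads aggregated proteins through its central pore, and chaperonins enclose a folding protein in a barrel that a cochaperonin caps. Many of these genes have heat- or stress-induced and constitutive copies in plants.

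The libraries held between 18616729 and 22975476 rounded expected counts. Levels below are FPKM (fragments per kilobase of transcript, scaled to the library), so that they can be set side by side between genes. A positive log2 fold change from edgeR means a higher level in co-culture, on counts scaled between libraries (TMM), and SE is the standard error of DESeq2's log2 fold change. Leaf transcripts were present in every library. The summed level of 37 chlorophyll a-b binding unigenes was 6050, 9380 and 1510 FPKM in co-culture 1, 2 and 3, against 3030 and 1750 FPKM in plant alone 2 and 3. The 5 unigenes of the RuBisCO small chain summed to 1100, 2710 and 128 FPKM in co-culture, against 870 and 388 FPKM in plant alone. Chloroplastic carbonic anhydrase lay between 66.5 and 86.7 FPKM in all 5 libraries, and the only unigene of SPEECHLESS, an epidermal marker, had 1.31, 0.53 and 1.39 FPKM in co-culture, against 1.70 and 2.30 FPKM in plant alone. The other epidermal markers differed from it: 33 unigenes of 3-ketoacyl-CoA synthase summed to 956, 1010 and 1090 FPKM in co-culture, against 428 and 1020 FPKM in plant alone, and 11 of EPIDERMAL PATTERNING FACTOR to 26.1, 10.5 and 43.7 FPKM, against 30.6 and 25.0 FPKM. Unigenes with hits to cryptophytes summed to 47.8, 21.0 and 69.8 FPKM in co-culture, against 67.0 and 486 FPKM in plant alone, and those with hits to green algae to 1670, 1540 and 1880 FPKM, against 2040 and 3310 FPKM. Hits to red algae (86.3, 44.4 and 142 FPKM, against 143 and 1090 FPKM) and to oomycetes (468, 383 and 584 FPKM, against 431 and 2270 FPKM) were likewise highest in plant alone 3. Whether these differences between libraries bear on the chaperone values was not tested. In bulk leaf RNA, fewer cells of a type and less RNA per cell cannot be told apart.

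Chaperone transcripts were mostly more abundant in co-culture leaves, and co-culture 2 stood far above every other library. Summed over the 107 members, the level was 2580, 5530 and 3160 FPKM in co-culture 1, 2 and 3, against 1890 and 2280 FPKM in plant alone 2 and 3. For the members, all co-culture libraries were thus above both plant alone libraries, which did not hold for unigenes with the same words in other genera, given below. The means were 3750 ± 1570 FPKM in co-culture (SD, n = 3) and 2080 ± 276 FPKM in plant alone (SD, n = 2), a ratio of 1.80. Without co-culture 2 the ratio was 1.38. Of the 97 members that passed the filter on low counts, 80 were higher and 17 lower in co-culture, and the median log2 fold change was 0.68. Of these, 3 had no reads in plant alone and could only come out higher, and over the other 94 the counts were 77 and 17, with a median of 0.67. Over all 69984 unigenes tested the median was 0.00 with 50.1% higher, and over the 37895 with hits in the 8 genera it was 0.10 with 55.7% higher. Without co-culture 2 the members' median was 0.34, with 69 higher and 23 lower.

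No member passed edgeR's test at an adjusted p of 0.05, where 0% of all unigenes passed either. The smallest adjusted p among members was 0.628. At an unadjusted p under 0.05 edgeR gave 6 members higher and 0 lower, against 2.75% of all unigenes higher and 4.45% lower (3.27% and 2.31% for the 8 genera). DESeq2 called 2 members higher and 0 lower, against 0.899% and 0.977% of all unigenes (1.2% and 0.528% for the 8 genera). Every co-culture library lay above both plant alone libraries for 31 of the 97 members, against 12.8% of all unigenes and 14.9% of those with hits in the 8 genera. Every co-culture library lay below for 3 members, against 17.2% and 12.4%. Members with separate groups were thus mostly higher in co-culture, although none passed the edgeR test.

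**Figure D1:**
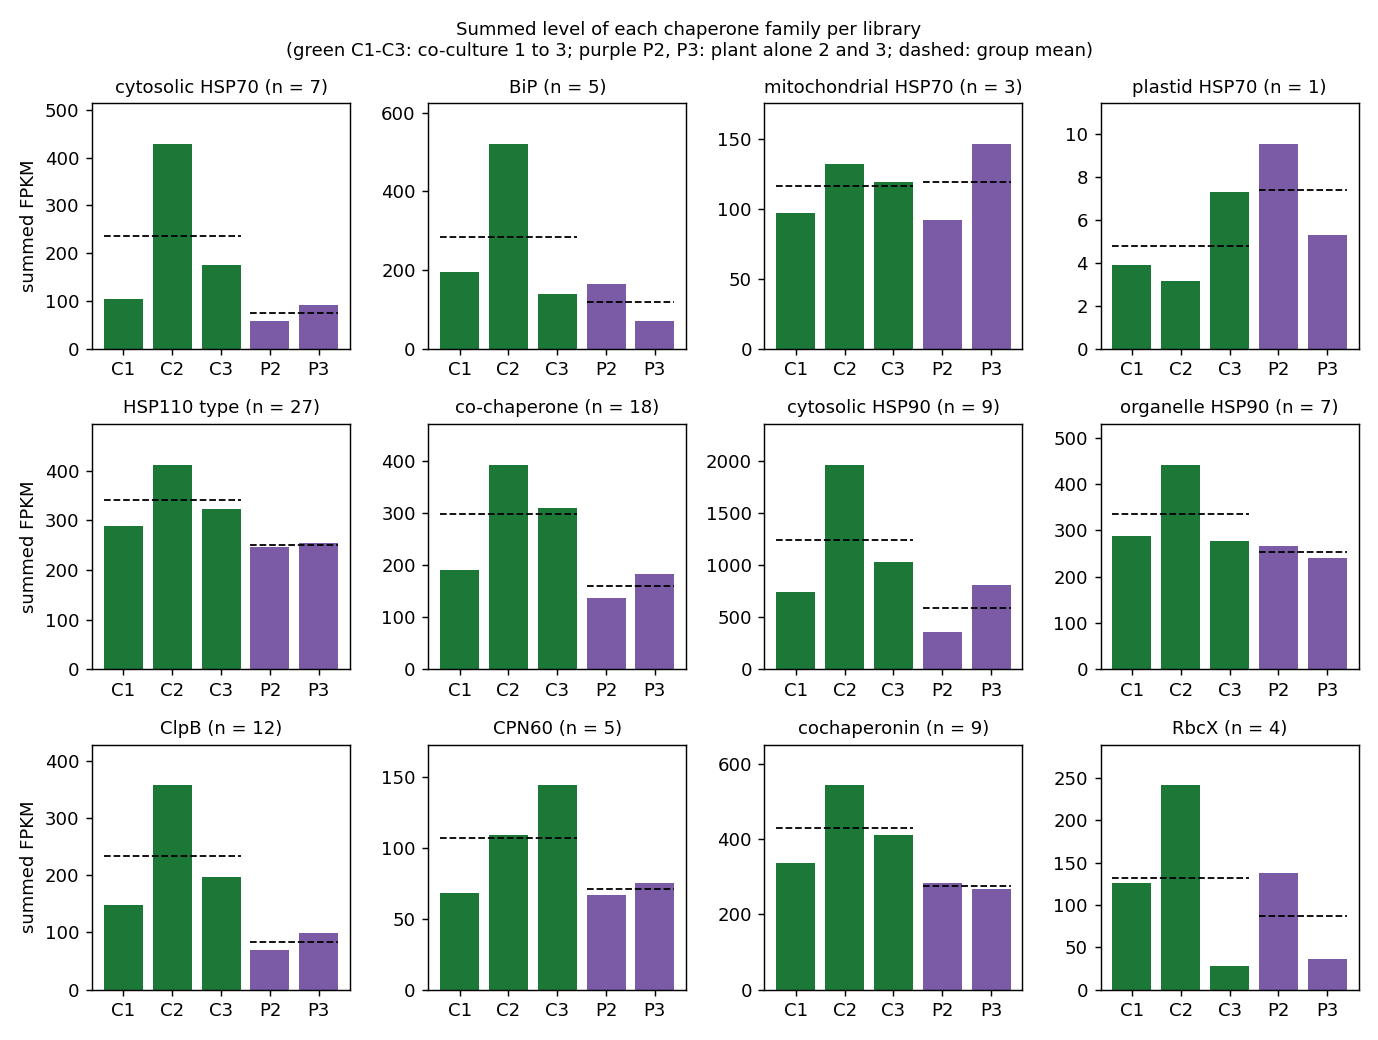
Summed FPKM of the members of each chaperone family in each library, with co-culture 1 to 3 in green on the left and plant alone 2 and 3 in purple on the right. Dashed lines are group means, and n is the number of members summed. Co-culture 2 has the tallest bar in 9 of the 12 panels, and the exceptions are mitochondrial HSP70, plastid HSP70 and CPN60.

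Cytosolic HSP70 folds newly made proteins and refolds damaged ones. Of its 7 members 6 were tested, all 6 with a positive log2 fold change, and their median was 1.21. The summed level of all 7 was 103, 428 and 174 FPKM in co-culture, against 56.9 and 91.2 FPKM in plant alone. Without co-culture 2 the median was 0.74 over 5 tested members. The most abundant member, a heat shock cognate 70 kDa protein 2 (CL4258.Contig2_zju), had 66.0, 327 and 87.9 FPKM in co-culture, against 36.9 and 59.6 FPKM in plant alone. All co-culture libraries were above both plant alone libraries, with co-culture 2 at 4.88 times the next highest library on scaled counts. The log2 fold change was 1.77 (SE 0.98, edgeR adjusted p = 0.65). The second, a heat shock 70 kDa protein 8 (CL13544.Contig2_zju), had 18.4, 69.5 and 57.9 FPKM in co-culture, against 6.87 and 18.3 FPKM in plant alone. Here co-culture 1 lay at the level of plant alone 3. edgeR gave a log2 fold change of 1.90 (SE 0.88, adjusted p = 0.628). The lowest member, Unigene23162_zju, had too few reads to be tested.

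BiP, the luminal-binding protein, is the HSP70 of the endoplasmic reticulum. All 5 members had positive log2 fold changes, with a median of 1.47. The summed level was 195, 520 and 138 FPKM in co-culture, against 165 and 70.04 FPKM in plant alone, so the groups overlapped. Co-culture 2 was the highest library for all 5 members and plant alone 3 the lowest for all 5. On scaled counts, plant alone 2 was instead the lowest library for 5 of the 6 tested cytosolic HSP70 members. Without co-culture 2 the BiP median was 0.62, with 4 higher and 1 lower.

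The contigs of the main BiP cluster differed in level and in pattern. A luminal-binding protein 5 contig (CL2306.Contig2_zju) had 30.0, 139 and 34.3 FPKM in co-culture, against 18.8 and 13.8 FPKM in plant alone. Its groups did not overlap, and its log2 fold change was 2.13 (SE 0.97, edgeR adjusted p = 0.628). A luminal-binding protein 2 contig of the same cluster (CL2306.Contig5_zju) had 58.6, 103 and 26.8 FPKM in co-culture, against 64.3 and 21.3 FPKM in plant alone. Its libraries interleaved, and its log2 fold change was 0.62 (SE 0.90, edgeR adjusted p = 0.86). Contigs of a cluster are similar assembled sequences that can share reads, so the split of reads between them is uncertain. Summed over the cluster, scaled counts (CPM) were 288, 854 and 168 CPM in co-culture, against 250 and 109 CPM in plant alone, with a log2 fold change of 1.28 (edgeR adjusted p = 0.62 over cluster sums).

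Of the HSP70 members of mitochondria and plastids, 1 had a positive log2 fold change and 3 a negative one. The mitochondrial form, a motor of protein import into the matrix, had 3 members, 1 higher and 2 lower, with a median log2 fold change of -0.08. The most abundant (Unigene6403_zju) had 51.2, 57.7 and 53.2 FPKM in co-culture, against 49.5 and 62.2 FPKM in plant alone. Its 5 libraries lay within a 1.45-fold range on scaled counts, against a median range of 2.41-fold over all unigenes averaging at least 5 CPM. It had a log2 fold change of -0.08 (SE 0.39, edgeR adjusted p = 0.961). Another mitochondrial member (CL4785.Contig2_zju) had 29.3, 45.0 and 41.5 FPKM in co-culture, against 31.1 and 60.5 FPKM in plant alone, with the extremes formed by co-culture 1 and plant alone 3. Without plant alone 3 the mitochondrial median was 0.37 with all 3 members higher, and without plant alone 2 it was -0.29 with all 3 lower. Leaving out co-culture 3 gave 0.03, and leaving out co-culture 2 gave -0.21. The only plastid member (CL16015.Contig6_zju) had 3.87, 3.13 and 7.28 FPKM in co-culture, against 9.52 and 5.27 FPKM in plant alone. The log2 fold change was -0.71 (SE 0.52, edgeR adjusted p = 0.679). Its cluster of 10 contigs also held other products, so its annotation is in doubt.

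The HSP110 type, large HSP70 relatives that in Arabidopsis act as nucleotide exchange factors of HSP70, was the largest family, with 27 members. Of 24 tested, 16 were higher and 8 lower, and the median log2 fold change was 0.25. Without co-culture 2 it was 0.13, and without co-culture 3 or without plant alone 2 it was 0.42. Over all unigenes tested the median was -0.03 without co-culture 3 and 0.18 without plant alone 2. The summed level of the family was 288, 412 and 323 FPKM in co-culture, against 247 and 254 FPKM in plant alone. The groups did not overlap, and the ratio of the means was 1.36.

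Within it, the forms named HSP70-17, which in Arabidopsis reside in the endoplasmic reticulum, had 7 members higher and 3 lower, with a median of 0.79. The cytosolic forms named HSP70-14 to HSP70-16 had 9 higher and 5 lower, with a median of 0.22. The summed levels did not show this difference, with ratios of the means of 1.32 for HSP70-17 and 1.38 for HSP70-14 to HSP70-16. For HSP70-17 the groups overlapped, with plant alone 2 (91.2 FPKM) above co-culture 1 (78.9 FPKM) and above co-culture 3. HSP70-14 to HSP70-16 summed to 209, 299 and 233 FPKM in co-culture, against 155 and 203 FPKM in plant alone, without overlap. Among the HSP70-17 forms, an isoform X1 contig (Unigene1988_zju) had 8.49, 15.8 and 11.4 FPKM in co-culture, against 4.93 and 4.09 FPKM in plant alone. All co-culture libraries were above, and the log2 fold change was 1.39 (SE 0.53, edgeR unadjusted p = 0.0225, adjusted p = 0.628). The most abundant members of the family were HSP70-14 contigs. CL4583.Contig2_zju had 60.4, 73.4 and 63.5 FPKM in co-culture, against 39.4 and 66.4 FPKM in plant alone, and only plant alone 2 stood apart. Unigene1720_zju had 36.0, 54.3 and 38.2 FPKM in co-culture, against 25.9 and 32.8 FPKM in plant alone. Its fitted log2 fold change was 0.53 (SE 0.51, edgeR adjusted p = 0.744), and its groups overlapped on scaled counts although not in FPKM.

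The co-chaperones that serve HSP70 were of 3 kinds, and differences between the kinds were not tested. Over all 18, 16 were tested, of which 13 were higher and 3 lower, with a median log2 fold change of 0.87, or 1.41 without plant alone 3. The summed level was 190, 392 and 309 FPKM in co-culture, against 137 and 182 FPKM in plant alone. HOP, the bridge between HSP70 and HSP90, had 6 tested members of 8, all higher, with a median of 1.81. One of them, CL2968.Contig4_zju, had no reads in plant alone and could only come out higher, and over the other 5 the median was 1.08. CL2968.Contig2_zju, which had too few reads to be tested, averaged 0.132 CPM in co-culture, against 0.575 CPM in plant alone. The other untested HOP contig, CL13028.Contig1_zju, went the other way. The authors' pooled values for it were 17.9 expected counts in co-culture and 0 in plant alone. The nucleotide exchange factor FES1 had 4 higher and 1 lower, with a median of 0.15. HSP70-binding protein 1, another exchange factor, had 3 higher and 2 lower, with a median of 0.58.

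The HOP contigs described here came from cluster CL2968. The most abundant (CL2968.Contig3_zju) had 48.1, 118 and 73.8 FPKM in co-culture, against 32.6 and 50.0 FPKM in plant alone, so co-culture 1 lay below plant alone 3. edgeR gave a log2 fold change of 0.94 (SE 0.68, adjusted p = 0.676). CL2968.Contig6_zju had 14.8, 70.1 and 21.7 FPKM in co-culture, against 3.12 and 9.21 FPKM in plant alone, with no overlap. The log2 fold change was 2.54 (SE 1.04, edgeR adjusted p = 0.628). CL2968.Contig5_zju had 1.84, 19.5 and 10.9 FPKM in co-culture, against 0.66 and 1.50 FPKM in plant alone. Co-culture 1 lay just above the plant alone libraries, and co-culture 2 and 3 lay far above. Its log2 fold change of 3.28 (SE 1.15) was the largest among members averaging at least 5 CPM without overlap, with an edgeR unadjusted p of 0.0397 and an adjusted p of 0.628. Summed over the cluster, the level was 190, 569 and 235 CPM in co-culture, against 110 and 183 CPM in plant alone, a log2 fold change of 1.18 (edgeR adjusted p = 0.556 over cluster sums).

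The most abundant FES1 contig (CL3836.Contig1_zju) had 26.6, 23.3 and 52.9 FPKM in co-culture, against 26.6 and 31.4 FPKM in plant alone, and only co-culture 3 stood apart. edgeR gave a log2 fold change of 0.15 (SE 0.47, adjusted p = 0.936). Among contigs of HSP70-binding protein 1, CL8620.Contig4_zju had 5.52, 16.7 and 4.88 FPKM in co-culture, against 2.71 and 1.33 FPKM in plant alone. It did not overlap, and its log2 fold change was 2.23 (SE 0.90, edgeR unadjusted p = 0.0448, adjusted p = 0.628). CL8620.Contig2_zju of the same cluster had 3.96, 0 and 5.91 FPKM in co-culture, against 5.48 and 5.07 FPKM in plant alone. On scaled counts every co-culture library lay below, and of the 3 members for which this held it was the only one averaging at least 5 CPM. The log2 fold change was -0.83 (SE 1.89, edgeR adjusted p = 0.919), and its cluster as a whole had 76.4, 154 and 70.8 CPM in co-culture, against 52.3 and 65.6 CPM in plant alone.

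**Figure D2:**
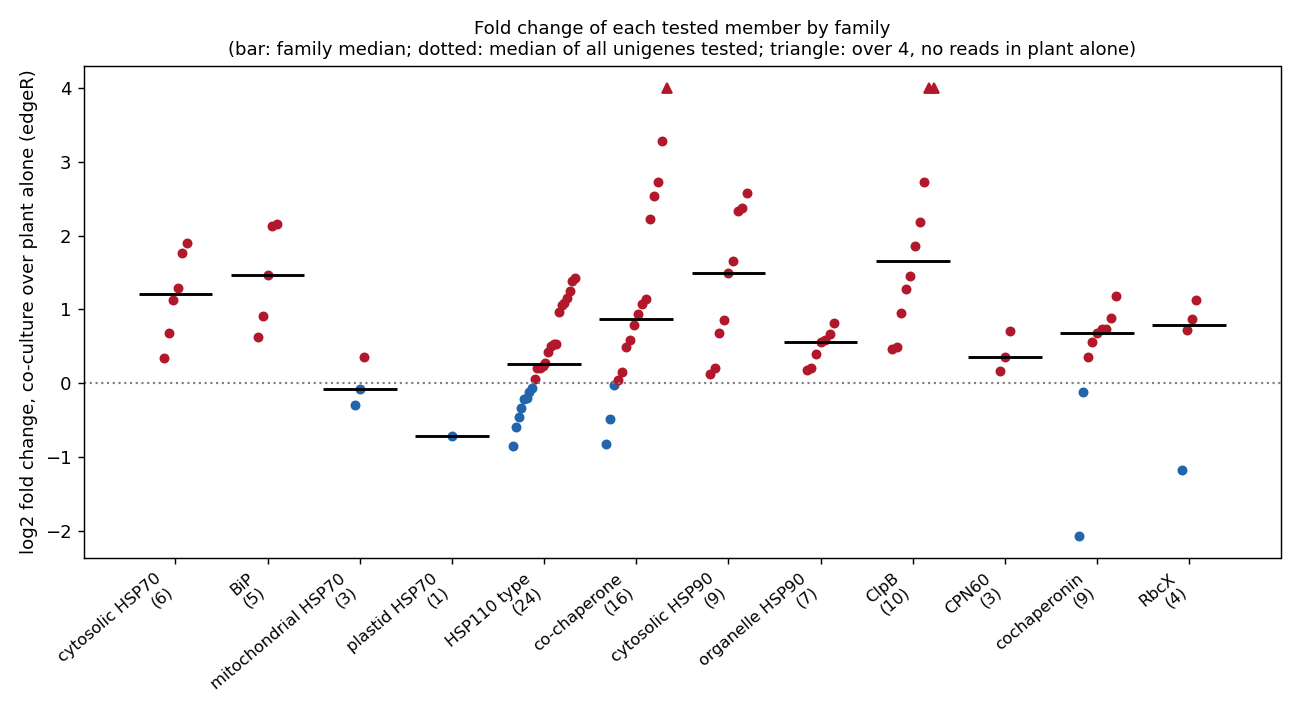
Log2 fold change of co-culture over plant alone (edgeR) for each of the 97 tested members, by family, with the number tested in parentheses. Bars are family medians, the dotted line is the median of all unigenes tested, and triangles at the upper end mark 3 members without reads in plant alone, whose fold is not bounded above. Cytosolic HSP90, BiP, cytosolic HSP70, organelle HSP90, ClpB and CPN60 have all points above 0.

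Cytosolic HSP90, the most abundant family, held between 18.8% (plant alone 2) and 35.6% (plant alone 3) of the members' summed FPKM, with 28.6%, 35.4% and 32.6% in co-culture. All 9 members had positive log2 fold changes, with a median of 1.49. Their summed level was 737, 1960 and 1030 FPKM in co-culture, against 354 and 811 FPKM in plant alone, so co-culture 1 lay below plant alone 3. On scaled counts, although not in FPKM, all 9 were highest in co-culture 2 and lowest in plant alone 2. The family median moved with single libraries. This median was 0.52 without co-culture 2, with 8 higher and 1 lower. It was 0.79, with 7 higher and 2 lower, without plant alone 2, where the median of all unigenes was 0.18, and 2.82 without plant alone 3, where it was 0.13.

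The members fell along a range from nearly level to strongly variable. A contig named heat shock protein 83 (CL128.Contig1_zju) had 64.8, 272 and 97.5 FPKM in co-culture, against 10.7 and 38.0 FPKM in plant alone. All co-culture libraries were above, and the span over the 5 libraries was 29.2-fold on scaled counts. The log2 fold change was 2.58 (SE 1.02, edgeR adjusted p = 0.628). The other HSP83 contig of the cluster (CL128.Contig2_zju) had 115, 474 and 151 FPKM in co-culture, against 30.6 and 68.5 FPKM in plant alone. It also did not overlap, with a log2 fold change of 2.34 (SE 0.96, edgeR adjusted p = 0.628). A short contig of heat shock protein 81-1 (Unigene4042_zju) had 30.4, 120 and 39.2 FPKM in co-culture, against 5.94 and 18.7 FPKM in plant alone, with a log2 fold change of 2.37 (SE 1.02, edgeR adjusted p = 0.628).

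The most abundant HSP90 contig lay at the level end of that range. A contig named heat shock protein 81-1 isoform X2 (CL8447.Contig4_zju) had 169, 243 and 201 FPKM in co-culture, against 117 and 247 FPKM in plant alone. Plant alone 3 had the highest FPKM of all. Its fitted log2 fold change was 0.13 (SE 0.60, edgeR adjusted p = 0.958), and its span was 2.38-fold. Cluster CL128 as a whole had 1280, 3570 and 1610 CPM in co-culture, against 580 and 1540 CPM in plant alone, with a log2 fold change of 1.02 (edgeR adjusted p = 0.646 over cluster sums). Cluster CL8447 had 527, 1790 and 663 CPM in co-culture, against 334 and 795 CPM in plant alone, with a log2 fold change of 0.82 (edgeR adjusted p = 0.718). In both clusters the groups overlapped through plant alone 3.

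**Figure D3:**
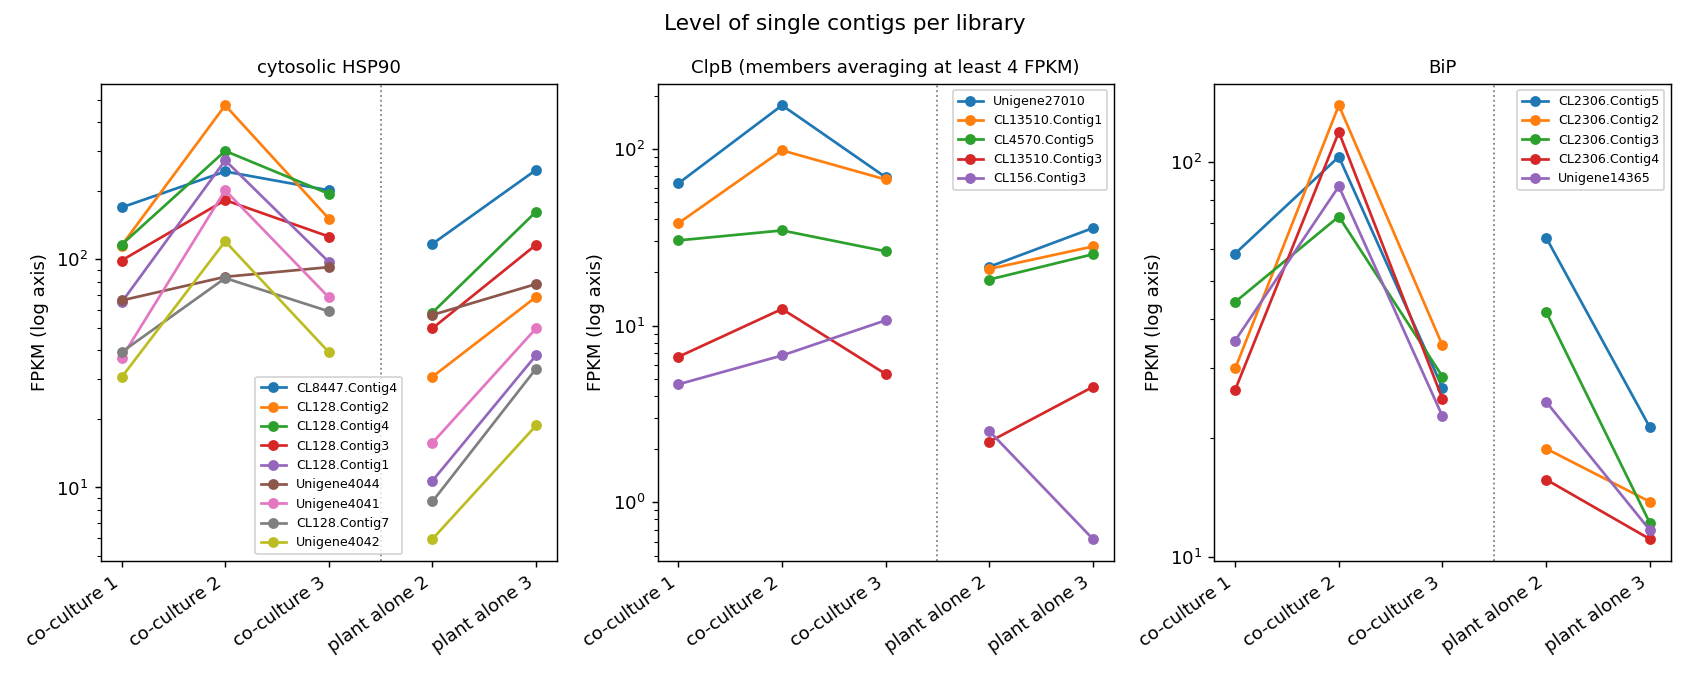
FPKM of single contigs on a log axis in co-culture 1 to 3 (left of the dotted line) and plant alone 2 and 3 (right), for cytosolic HSP90, ClpB members averaging at least 4 FPKM, and BiP. Lines only join values of the same unigene. The HSP83 contigs CL128.Contig1_zju and CL128.Contig2_zju span a wide range, from 10.7 to 272 and from 30.6 to 474 FPKM, while CL8447.Contig4_zju stays between 117 and 247 FPKM.

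HSP90 of plastids and mitochondria had a lower median than the cytosolic form, a difference that was not tested. All 7 members were higher, and the median was 0.56, or 0.26 without co-culture 2 with 6 higher and 1 lower. The summed level was 287, 442 and 278 FPKM in co-culture, against 267 and 240 FPKM in plant alone. The most abundant, a chloroplastic HSP90-5 contig (Unigene5904_zju), had 153, 316 and 133 FPKM in co-culture, against 178 and 132 FPKM in plant alone. Only co-culture 2 stood apart, and the log2 fold change was 0.40 (SE 0.68, edgeR adjusted p = 0.873). The most abundant mitochondrial HSP90-6 contig (CL801.Contig3_zju) had 66.2, 48.4 and 64.4 FPKM in co-culture, against 45.1 and 56.0 FPKM in plant alone. The groups overlapped through co-culture 2, here the lowest of its group in FPKM. edgeR gave a log2 fold change of 0.18 (SE 0.33, adjusted p = 0.893). The other mitochondrial contigs of cluster CL801 lay higher in every co-culture library, with log2 fold changes of 0.58 and 0.56.

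The disaggregase ClpB had 10 tested members of 12, all higher, with a median of 1.66. Of these, 2 had no reads in plant alone and could only come out higher, and over the other 8, all higher, the median was 1.36. Among these 8, CL156.Contig6_zju (log2 fold change 2.73) passed the filter through co-culture libraries alone. The summed level of all 12 members was 148, 357 and 197 FPKM in co-culture, against 69.4 and 98.9 FPKM in plant alone, without overlap and with a ratio of means of 2.78. Without co-culture 2 the ratio was 2.05 and the median 0.93, with 6 higher and 1 lower of the 7 members that still passed the filter. The summed level of each of its forms was higher in all co-culture libraries. ClpB1-like unigenes, the cytosolic form known as HSP101, summed to 94.0, 224 and 106 FPKM in co-culture, against 39.7 and 61.0 FPKM in plant alone. The chloroplastic ClpB3 unigenes summed to 44.6, 114 and 72.5 FPKM, against 23.1 and 32.5 FPKM. Those named mitochondrial ClpB3 summed to 8.95, 18.2 and 18.1 FPKM, against 6.65 and 5.39 FPKM.

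The main ClpB1-like unigene (Unigene27010_zju) had 63.7, 176 and 69.0 FPKM in co-culture, against 21.5 and 35.6 FPKM in plant alone. All co-culture libraries were above, and the log2 fold change was 1.86 (SE 0.80, edgeR unadjusted p = 0.0491, adjusted p = 0.628). The main chloroplastic ClpB3 (CL13510.Contig1_zju) had 37.9, 97.9 and 67.0 FPKM in co-culture, against 20.9 and 28.0 FPKM in plant alone. It likewise did not overlap, with a log2 fold change of 1.45 (SE 0.66, edgeR unadjusted p = 0.0476, adjusted p = 0.628). A mitochondrial ClpB3 contig (CL156.Contig3_zju) had 4.65, 6.77 and 10.7 FPKM in co-culture, against 2.53 and 0.62 FPKM in plant alone. It was highest in co-culture 3, with a log2 fold change of 2.19 (SE 0.76, edgeR unadjusted p = 0.0254, adjusted p = 0.628). The 6 members with an unadjusted edgeR p under 0.05 thus comprised 3 ClpB unigenes, an HSP70-17, a HOP contig and a contig of HSP70-binding protein 1.

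Both DESeq2 calls were ClpB1-like unigenes that were present in only part of the libraries. Unigene9672_zju had 0, 8.35 and 4.80 FPKM in co-culture, against 0 and 0 FPKM in plant alone. Unigene27011_zju had 0, 5.99 and 6.19 FPKM in co-culture, against 0 and 0 FPKM in plant alone. Co-culture 1 thus shared the value of both plant alone libraries, and the groups overlapped. The co-culture means of scaled counts were at least 180-fold and at least 169-fold higher, set against 3 counts over the plant alone group, a bound that covers counting error only. DESeq2 gave adjusted p-values of 0.0384 and 0.0385, and edgeR adjusted p-values of 0.628 for both. In the DESeq2 fit of cluster sums these unigenes, alone in their clusters, had adjusted p-values of 0.229 and 0.236. In the authors' deposited table the pooled plant alone value was 36.45 expected counts for Unigene9672_zju and 0 for Unigene27011_zju. The pooled plant alone column thus held reads of Unigene9672_zju that are in neither plant alone library analysed here. The log2 ratio of Unigene9672_zju in that table was 4.54, so the bound of 180-fold holds only for the 2 plant alone libraries analysed here. When a library was left out, DESeq2 no longer called Unigene9672_zju without co-culture 2, plant alone 2 or plant alone 3, nor Unigene27011_zju without plant alone 2 or plant alone 3. Placing members without reads in plant alone at their bound left the median of ClpB at 1.66 and that of all members at 0.68.

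Chaperonins of the GroEL type, which form the folding barrels of mitochondria, had 5 members under the name CPN60. The 3 tested were all higher, with a median of 0.36, and the summed level was 68.1, 109 and 144 FPKM in co-culture, against 66.7 and 75.1 FPKM in plant alone. Co-culture 3 was the highest library and co-culture 1 lay between the plant alone libraries. The median moved with single libraries, from 0.22 without co-culture 3 to 0.69 without plant alone 3, with 0.64 when co-culture 1 was left out and 0.61, with 1 of the 3 lower, when co-culture 2 was. The main CPN60-2 contig (CL6502.Contig1_zju) had 42.7, 70.2 and 97.7 FPKM in co-culture, against 39.4 and 42.5 FPKM in plant alone. In FPKM co-culture 1 was just above plant alone 3, and on scaled counts the groups overlapped. edgeR gave a log2 fold change of 0.71 (SE 0.49, adjusted p = 0.661). A further CPN60-2 (Unigene8733_zju) had 22.9, 36.0 and 34.2 FPKM in co-culture, against 24.4 and 29.3 FPKM in plant alone, with a log2 fold change of 0.17 (SE 0.46, edgeR adjusted p = 0.916).

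The cochaperonins, which cap chaperonin barrels, had 7 members higher and 2 lower of 9, with a median of 0.68, or 0.27 without co-culture 2. They summed to 335, 542 and 410 FPKM in co-culture, against 284 and 267 FPKM in plant alone, without overlap. The chloroplastic 20 kDa cochaperonin (CL759.Contig3_zju) had 142, 231 and 178 FPKM in co-culture, against 111 and 109 FPKM in plant alone. The plant alone libraries lay close together and all co-culture libraries above them. edgeR gave a log2 fold change of 0.73 (SE 0.47, adjusted p = 0.652). A 10 kDa chaperonin-like contig (CL6637.Contig4_zju), whose hit names no compartment, had 63.3, 83.0 and 78.8 FPKM in co-culture, against 54.7 and 59.8 FPKM in plant alone. It did not overlap either, with a log2 fold change of 0.36 (SE 0.38, edgeR adjusted p = 0.771).

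RbcX, a chaperone that helps assemble RuBisCO and is matched here by the word chaperonin, was most abundant in co-culture 2 and plant alone 2. Its 4 contigs, all of cluster CL2778, summed to 126, 241 and 28.1 FPKM in co-culture, against 138 and 35.9 FPKM in plant alone. Co-culture 3 was lowest and co-culture 2 highest, so the range of plant alone lay within that of co-culture. The RuBisCO small chain and the chlorophyll a-b binding unigenes, given above, were also highest in co-culture 2 and lowest in co-culture 3, and their part in the RbcX values was not tested. The main contig (CL2778.Contig2_zju) had 94.3, 195 and 20.1 FPKM in co-culture, against 110 and 24.8 FPKM in plant alone. The fitted log2 fold change was 0.72 (SE 1.18, edgeR adjusted p = 0.889). The second (CL2778.Contig3_zju) had 28.2, 32.9 and 3.17 FPKM in co-culture, against 16.3 and 8.55 FPKM in plant alone, with a log2 fold change of 0.87 (SE 1.12, edgeR adjusted p = 0.85). The median of the 4 contigs was 0.79. It was -0.03 without co-culture 2, with 2 higher and 2 lower, 1.29 without co-culture 3, 1.70 without plant alone 2 and 0.28 without plant alone 3.

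**Figure D4:**
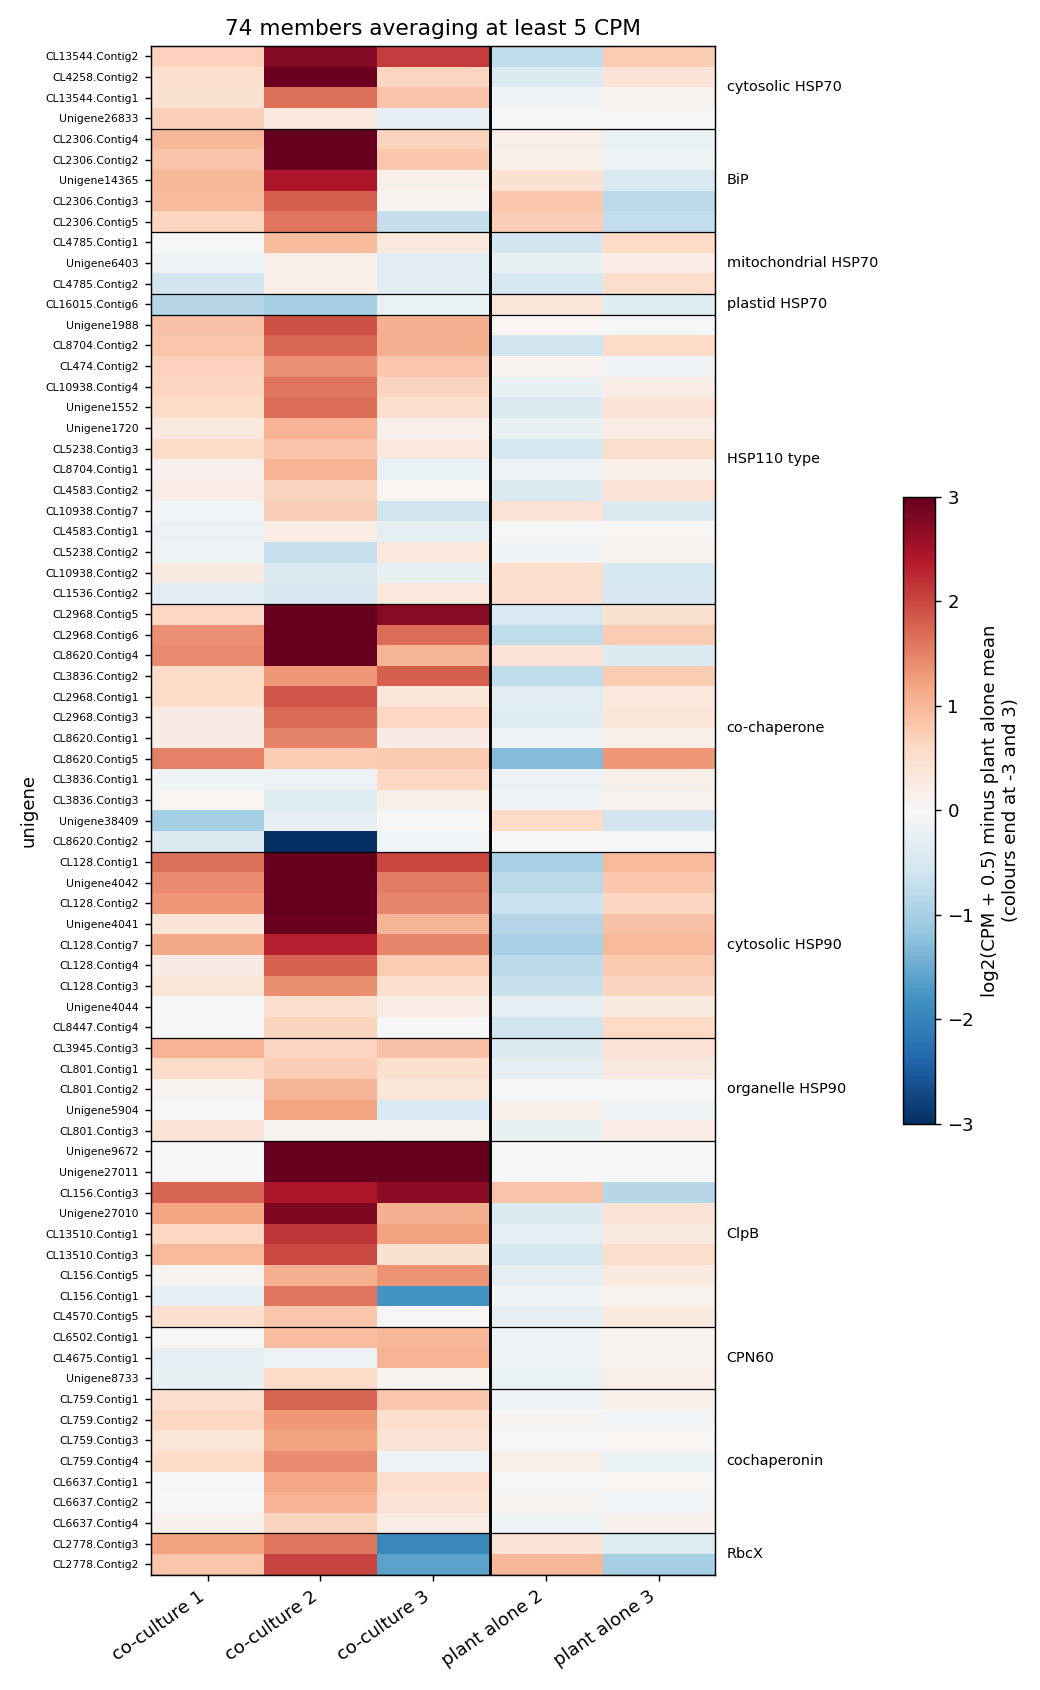
Level of the 74 members averaging at least 5 CPM in each library, as log2(CPM + 0.5) minus the mean of plant alone 2 and 3, grouped by family. Red is above and blue below the plant alone mean, the vertical line parts co-culture (left) from plant alone (right), and colours end at 3. The column of co-culture 2 is red through most families, while the RbcX rows are blue in co-culture 3.

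The libraries contributed unequally to these differences. Among the 97 tested members, 63 (64.9%) had their highest scaled count in co-culture 2, against 23.8% of all unigenes tested and 27.8% of those with hits in the 8 genera. Plant alone 2 was the lowest library for 43 (44.3%), against 17.9% and 22.0%. The median of the members' log2 distance from the plant alone mean was 0.31 in co-culture 1, 1.19 in co-culture 2 and 0.47 in co-culture 3. The difference between the groups was therefore largest in co-culture 2. Without co-culture 2, both remaining co-culture libraries lay above both plant alone libraries for 34 of the 97 members (35.1%), against 18.0% of all unigenes and 19.7% of those with hits in the 8 genera.

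**Figure D5:**
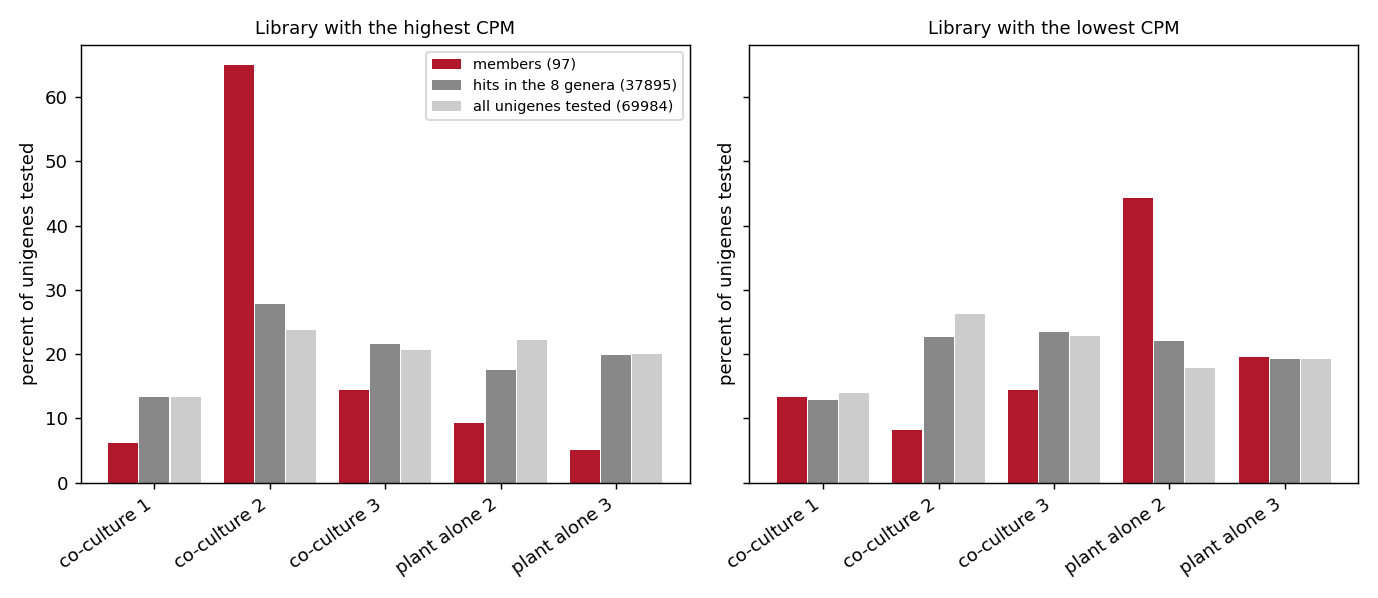
Share of unigenes tested whose highest (left panel) or lowest (right panel) scaled CPM was in each library, for the 97 members (red), the 37895 unigenes with hits in the 8 genera (dark grey) and all 69984 unigenes (light grey). Co-culture 2 is the highest library for 64.9% of the members, and plant alone 2 the lowest for 44.3%.

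The families differed in how much they varied between libraries. Among members averaging at least 5 CPM with reads in every library, the median ratio of the highest to the lowest library was 11.0 for cytosolic HSP90, 7.84 for BiP, 6.87 for cytosolic HSP70, 6.51 for ClpB and 15.2 for HOP, the last from 4 contigs of cluster CL2968. It was 2.17 for mitochondrial HSP70, 2.17 for CPN60, 2.10 for organelle HSP90 and 1.75 for FES1. Over all unigenes of that abundance it was 2.41, and over those with hits in the 8 genera 2.28. RbcX had a ratio of 13.2. Mitochondrial HSP70 and CPN60 thus varied about as much between libraries as unigenes of that abundance at large. All these ratios are of single contigs, and the split of reads within a cluster is uncertain. Summed per cluster, libraries ranged from 110 to 569 CPM for CL2968 (HOP) and from 109 to 854 CPM for CL2306 (BiP). For cytosolic HSP90 they ranged from 580 to 3570 CPM in CL128 and from 334 to 1790 CPM in CL8447.

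Contigs of the same cluster can exchange reads, and 75 of the 107 members were in clusters of several contigs. With counts summed per cluster before the fit, 47 of 56 tested clusters were higher and 9 lower. These sums took in every contig of a cluster, also those that are not members. Such contigs made up 17 of the 18 in CL4241, 9 of the 10 in CL16015 and 4 of the 5 in CL4258. Every co-culture library lay above both plant alone libraries for 19 of them, against 12.9% of all 44464 clusters tested. Neither edgeR nor DESeq2 called any of the 56, and DESeq2 called 0.549% of all clusters higher. Of the 32 members alone in their cluster 27 were tested, 22 of them higher and 5 lower, with a median of 0.51.

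The rule left out 63 unigenes whose description carried the same words but whose hit came from another genus, and some of these were more abundant than any member. Of the 49 tested, 35 were higher and 14 lower, with a median of 0.52. All 63 summed to 3120, 6910 and 4110 FPKM in co-culture, against 2370 and 4010 FPKM in plant alone. This is more than the members' sum in every library. Here co-culture 1 lay below plant alone 3, so the groups overlapped. An HSP70 with a hit in Ornithogalum (CL15855.Contig3_zju) had 452, 416 and 548 FPKM in co-culture, against 446 and 751 FPKM in plant alone, with a log2 fold change of -0.41. An HSC70-2 with a hit in Nicotiana (Unigene7821_zju) had 348, 1060 and 425 FPKM in co-culture, against 266 and 339 FPKM in plant alone, with a log2 fold change of 1.04. These examples were chosen after their values were seen, as the most abundant of the group. The levels of cytosolic HSP70 and HSP90 given above are therefore those of the members and not of every contig with such a name.

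In the authors' deposited table, which compared reads pooled per group, 88 of 106 members with a ratio had a positive log2 ratio (co-culture over plant alone), with a median of 0.74, against 54.3% of all unigenes and a median of 0.12. That table marked 37 members Up and 4 Down, where it marked 16.3% and 13.6% of its 112092 unigenes. That plant alone column included reads not analysed here, and pooling leaves the spread between libraries out of its test.

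Other genes of the folding pathway, taken from lists by their names, differed from list to list. Small heat shock proteins, which hold unfolded proteins without ATP, had 22 of 26 tested higher and 4 lower, with a median of 1.61. Their most abundant unigene, an 18.1 kDa class I protein (Unigene7429_zju), had 3460, 5650 and 3230 FPKM in co-culture, against 1280 and 1640 FPKM in plant alone, without overlap. The log2 fold change was 1.49 (SE 0.57, edgeR adjusted p = 0.628). DESeq2 called 2 small heat shock proteins higher and 0 lower, against 0.899% and 0.977% of all unigenes. Cofactors of HSP70 and HSP90 outside the rule had 20 higher and 6 lower, with a median of 0.56. Among them a BAG family regulator 6-like unigene (CL8692.Contig1_zju), of a family that binds HSP70, had 264, 1050 and 637 FPKM in co-culture, against 109 and 117 FPKM in plant alone. All co-culture libraries were above, and this unigene was called by DESeq2 with a log2 fold change of 2.57 (SE 0.78, adjusted p = 0.0497) but not by edgeR (log2 fold change 2.53, adjusted p = 0.628).

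The RuBisCO large subunit-binding protein, the plastid CPN60 under its older name, had 19 higher and 5 lower, with a median of 0.91. Its main unigene (Unigene2205_zju) had 113, 229 and 171 FPKM in co-culture, against 45.5 and 83.7 FPKM in plant alone, with a log2 fold change of 1.38 (SE 0.64, edgeR adjusted p = 0.628). Plastid CPN60 was thus represented there and not among the members, whose CPN60 hits all named mitochondria.

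The remaining lists lay nearer to the 0.10 median of the 8 genera. J-domain proteins, which start the HSP70 cycle, had 71 higher and 48 lower, with a median of 0.16. Their main unigene (CL6124.Contig3_zju) had 606, 770 and 685 FPKM in co-culture, against 330 and 817 FPKM in plant alone. Heat stress transcription factors include the activators of heat shock genes. Their list, which by its words also took in 3 unigenes of HSF-binding proteins, had 22 higher and 15 lower, with a median of 0.31. It summed to 278, 313 and 314 FPKM in co-culture, against 271 and 286 FPKM in plant alone, so the groups overlapped. Without those proteins, a trim made after the list was seen, 22 were higher and 13 lower, with a median of 0.36, and the summed level was 201, 251 and 231 FPKM in co-culture, against 193 and 186 FPKM in plant alone. The main unigene, B-2b-like (CL4944.Contig1_zju), of a class that lacks the activation motif of class A factors, had 38.6, 46.3 and 47.0 FPKM in co-culture, against 38.8 and 37.1 FPKM in plant alone, so its groups overlapped.

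Other folding proteins of the endoplasmic reticulum had 29 higher and 19 lower, with a median of 0.12. BiP in the same compartment, whose summed groups overlapped, had a median of 1.47, and HSP70-17 had 0.79, differences that were not tested. The other folding proteins summed to 1400, 1500 and 1390 FPKM in co-culture, against 1290 and 1200 FPKM in plant alone, without overlap. Their main unigene, a calreticulin-3-like protein (CL2793.Contig3_zju), had 200, 178 and 263 FPKM in co-culture, against 109 and 146 FPKM in plant alone, with a log2 fold change of 0.68 (SE 0.35, edgeR adjusted p = 0.632). The cytosolic chaperonin CCT, listed as T-complex protein, with prefoldin had 18 higher and 20 lower, with a median of -0.02. Their main unigene, a prefoldin subunit 3 (Unigene1908_zju), had 53.5, 48.2 and 59.7 FPKM in co-culture, against 41.1 and 71.4 FPKM in plant alone. The other Clp proteins, of the organelle protease machinery, had 31 higher and 21 lower, with a median of 0.15. Their main unigene, ClpC1 (Unigene8749_zju), had 198, 333 and 195 FPKM in co-culture, against 245 and 241 FPKM in plant alone. No unigene of the 8 genera was named HSP101, the other name of cytosolic ClpB.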

How the data were processed

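Per the labels' protocols, leaf RNA was read on the BGISEQ-500 platform. The submitters' processing notes name Bowtie2, RSEM and DESeq2, with no version. The authors deposited, per library and unigene, an expected count and an FPKM value with a protein hit, per the file headers. Their deposited comparison table held pooled expected counts, a log2 ratio, a p-value and a q-value. Unigenes missing from a library's file were set to 0, and expected counts were rounded.

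All unigenes were fitted with edgeR's quasi-likelihood test (edgeR 4.0.16, R 4.3.3, limma 3.58.1), with its default filter (minimum count 10), TMM scaling and Benjamini-Hochberg adjustment at 0.05. DESeq2 1.42.0 was the alternative. The biological coefficient of variation was 0.773. The fits were tested on simulated data, where recovery of changed unigenes was required only at a dispersion far below that of these libraries. Power at the spread of these libraries is not given here. P-values come from 3 co-culture and 2 plant alone libraries, and counting bounds (3 counts) cover counting error only. The members and lists were chosen with earlier results of these data known, and RbcX was set apart from CPN60 after the annotation was seen. Named are members past the edgeR threshold, up to 8 DESeq2 calls per direction, the 2 most abundant per family, up to 4 largest non-overlapping changes per direction at 5 CPM or more, and the most abundant unigene of each other list. Unigene1988_zju, CL156.Contig3_zju and CL8620.Contig4_zju were named after their values were seen, for their unadjusted p. In an alternative, counts of all contigs, members or not, were summed per assembly cluster.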

Additional observations from a re-analysis of the deposited data

How the results depend on the processing

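Counts of members called depended on the tool: edgeR called 0 under every alternative run, while DESeq2 called 2, and 2 to 10 when a library was left out, the most without plant alone 3 (an alternative chosen after seeing the data). Fits with 3 libraries against 1 assume that a lone plant alone library varies like the co-culture ones. The members' median log2 fold change was positive in every alternative run, between 0.34 and 0.83 in edgeR when a library was left out and 0.60 with scaling factors from the 8 genera alone. When a library was left out, family medians ranged from 0.52 to 2.82 for cytosolic HSP90, 0.26 to 0.65 for organelle HSP90, 0.93 to 1.94 for ClpB and 0.62 to 1.41 for the co-chaperones. In those edgeR fits the median of all unigenes tested itself ranged from -0.03 without co-culture 3 to 0.18 without plant alone 2. Cluster sums, which include contigs that are not members, gave -0.01 (edgeR) and 0.03 (DESeq2) for plastid HSP70, and 0.38 and 0.41 for the co-chaperones. DESeq2's 4 calls without co-culture 2 were in BiP, HOP, HSP70-17 and ClpB1. The causes were not tested.

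Some named unigenes, with log2 fold changes between -0.29 and 0.72, changed direction when a library was left out. Their log2 fold changes then ranged from -0.03 to 1.54 for CL2306.Contig5_zju (BiP), -0.10 to 0.80 for CL4583.Contig2_zju (HSP70-14), -0.29 to 0.18 for Unigene6403_zju and -0.74 to 0.37 for CL4785.Contig2_zju (both mitochondrial HSP70). They ranged from -0.36 to 0.87 for CL8447.Contig4_zju (HSP81-1), -0.20 to 0.70 for Unigene5904_zju (HSP90-5), -0.02 to 0.44 for CL801.Contig3_zju (HSP90-6) and -0.03 to 0.40 for Unigene8733_zju (CPN60-2). For CL2778.Contig2_zju (RbcX) they ranged from -0.24 to 2.07, and for CL3836.Contig1_zju (FES1) from -0.16 to 0.37. Outside the members they ranged from -0.34 to 1.12 for CL6124.Contig3_zju (J-domain) and -0.52 to 0.43 for Unigene1908_zju (prefoldin).

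The replicate numbers shared by the groups were used as a replicate block in an alternative fit, although same-numbered libraries deviated together with correlations of only 0.0371 and 0.0695. The members' median was then 0.78, with 77 higher and 20 lower and 0 called by edgeR, and CL2778.Contig3_zju reversed to -0.24.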
